A study of Homo sapiens with 38 samples.

Results

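A549 cells exposed for 24 h to amorphous silica nanoparticles at 1.0 µg/cm2 were compared with A549 cells kept in serum-free medium for the same time. The 8 arrays of this comparison, out of 38 arrays in the series, were chosen by their labels: 4 labelled SiO2NPs_1.0µg/cm² and the 4 labelled A549_CTRL that were hybridised on the same 3 slides. A549 is an established line of human alveolar epithelial cells derived from a lung tumour and used as a model of the type II cell, and all 8 samples came from this line alone, without the macrophages that meet inhaled particles in the lung. The particles were AEROSIL fumed silica. All cultures had been grown in medium with serum before the exposure, and the controls then received serum-free medium without particles. The question addressed was whether this low dose changes transcript levels at all.

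The replicates were not 4 independent samples in behaviour. Across probes, levels of replicates 1 and 2 of a group, and of replicates 3 and 4, correlated at 0.997 to 0.998. After each group's mean was taken out, arrays of the same pair deviated together, with correlations of 0.27 to 0.44. Between groups, a pair deviated with the other-numbered pair, with correlations of 0.21 to 0.47, and against the pair of the same numbers, with correlations of −0.49 to −0.22. The labels number the replicates 1 to 4 as biological and the protocol speaks of 3 cultures, so whether paired arrays share a culture is not stated, and p-values measure only the spread between arrays. Calls are therefore set beside a second fit that treats replicates 1-2 and 3-4 of each group as blocks. Where a difference within a pair is given, exposed and control pairs were matched by their replicate numbers alone, and another matching would give other values.

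Levels are log2 signals minus the 75th percentile of each array, so 0 is the upper quartile of that array and 1 unit is a doubling. The 75th percentile itself lay between 1847 and 2102 on the control arrays and between 2506 and 2945 on the exposed arrays, with no overlap, and the share of probes above background lay between 59.98% and 69.8%. Of 9 epithelial markers, 8 were above background on all 8 arrays, and the summed linear level of the list was 476 to 506 in controls and 396 to 460 in exposed cells. Of 10 alveolar type II markers, 5 were above background on all 8 arrays, and the lineage factor NKX2-1 and the phosphate transporter SLC34A2 on none. Of 9 leukocyte and macrophage markers, 4 were detected on all 8 arrays, while CSF1R, FCGR3A and MARCO were detected on none. The summed level of that list was 0.638 to 0.670 in controls and 0.691 to 0.923 in exposed cells.

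As background, the genes that carried the comparison belong to 3 systems. ICAM1 is a cell surface adhesion receptor for leukocyte integrins, and in epithelium its gene is switched on by cytokines through NF-kB, a family of Rel-domain factors held in the cytoplasm by inhibitors until a signal frees them. The ID proteins bind basic helix-loop-helix factors and keep them off DNA, and bone morphogenetic protein (BMP) signals through SMAD factors are their best known inducers. The immediate-early genes, among them the FOS and EGR families, are transcribed within minutes of a growth factor or stress signal, without new protein synthesis, and the MAP kinase phosphatases that appear with them shut the signal off again.

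The upstream sequences of ICAM1 and EGR1 are shown because ICAM1 was the only transcript called higher and EGR1 is the best studied member of the immediate-early group that lay lower. Each is the 250 bases before the transcription start in RefSeq (GRCh38.p14), read 5′ to 3′, ICAM1 from chr19:10270870-10271119 and EGR1 from chr5:138465229-138465478, both on the plus strand. The capitals mark a match to the Rel core GGAANTTCC in ICAM1, which starts 186 bases upstream, and matches to the CArG box, the site of serum response factor, in EGR1, which start 105 and 83 bases upstream.
ICAM1: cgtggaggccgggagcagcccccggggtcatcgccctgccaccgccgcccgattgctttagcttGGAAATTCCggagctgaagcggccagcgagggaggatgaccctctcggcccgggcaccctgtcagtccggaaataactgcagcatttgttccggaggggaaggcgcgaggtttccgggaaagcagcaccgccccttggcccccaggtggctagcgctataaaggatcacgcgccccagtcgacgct
EGR1: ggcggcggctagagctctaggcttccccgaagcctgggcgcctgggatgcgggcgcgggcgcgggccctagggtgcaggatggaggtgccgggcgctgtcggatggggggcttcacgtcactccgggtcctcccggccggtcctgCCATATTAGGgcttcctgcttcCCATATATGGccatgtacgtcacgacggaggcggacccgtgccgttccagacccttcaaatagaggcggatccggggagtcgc
The Rel core was found on either strand in 290 of 35116 upstream windows of this length (0.826%) and the CArG box in 407 (1.16%). A match describes the letters of a window and is not evidence that a factor was bound there.

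At 1.0 µg/cm2, ICAM1 rose and ID4 fell, and no other transcript was called. These were 2 of 21091 tested probes (0.00948%), called by limma where the p-value, adjusted over all tested probes by Benjamini-Hochberg, was under 0.05 and the groups differed at least 1.5-fold. TMEM47 rose and ID2 fell by less than that fold, with adjusted p under 0.05, which makes 4 probes at any fold. At an unadjusted p under 0.05 there were 3708 probes (17.6%). With the pairs as blocks, none was called: the correlation within pairs was estimated at 0.807, the lowest adjusted p was 0.173, and 872 probes had an unadjusted p under 0.05. With each pair averaged to 1 value, limma again called 0, with 552 probes at an unadjusted p under 0.05. Leaving out control replicate 2 left 1 call, and leaving out exposed replicate 1 gave 4.

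The ICAM1 probe, on chromosome 19, read −6.26, −6.18, −6.09 and −6.06 in control replicates 1 to 4. In exposed replicates 1 to 4 it read −5.28, −5.27, −5.30 and −5.36. All exposed arrays were above all control arrays, and the gap between the groups was several times the range within either. The difference was 0.84 ± 0.06 (log2, SE), with a limma adjusted p of 0.00468, or 0.230 with the pairs as blocks. It was 0.94 within replicates 1-2 and 0.75 within replicates 3-4, and the same sign in both follows from the lack of overlap. The probe was dim: it was above background on 3 of 4 control arrays and on 4 of 4 exposed arrays. With normexp background correction the difference was 0.10 with an adjusted p of 0.433, and in the deposited median intensities 0.24 with an adjusted p of 0.173. Without control replicate 2 the adjusted p was 0.0520.

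ID4, an inhibitor of differentiation whose gene lies on chromosome 6, read −3.88, −3.85, −3.57 and −3.57 in the controls. In the exposed arrays it read −4.97, −4.87, −4.85 and −4.94. Every exposed array was lower by close to 1 unit or more. The difference was −1.19 ± 0.09, with a limma adjusted p of 0.00468, or 0.173 with the pairs as blocks. Within replicates 1-2 it was −1.06 and within replicates 3-4 −1.33. The probe was above background on all 8 arrays, and the call was kept whichever single array was left out, with adjusted p from 0.0185 to 0.0452. In a fit that also held the arrays of the 0.1 µg/cm2 dose its adjusted p was 0.292. An exact two-sided permutation test over the 8 arrays gave p = 0.0286 for both ICAM1 and ID4, the smallest that 4 against 4 allows. Over the 4 pair means this test gave 0.333, again the smallest possible. Both genes were chosen by their calls, and any probe without overlap between groups gives these values. Of all tested probes, 2720 (12.9%) had no overlap, so the permutation test adds nothing to the calls.

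TMEM47, a membrane protein of cell junctions encoded on chromosome X, read −3.00, −3.11, −3.07 and −3.09 in controls and −2.53, −2.56, −2.45 and −2.50 in exposed cells. The difference was 0.56 ± 0.06, 0.51 in one pair and 0.60 in the other, with a limma adjusted p of 0.0330, or 0.997 with the pairs as blocks. ID2, on chromosome 2, read 2.84, 2.75, 2.78 and 2.75 in controls and 2.30, 2.27, 2.21 and 2.18 in exposed cells. Its difference was −0.54 ± 0.06, with −0.51 and −0.57 in the pairs, and a limma adjusted p of 0.0372, or 0.997 with the pairs as blocks. A second ID2 probe gave −0.53 with an adjusted p of 0.0784. In all 4 transcripts, the groups were apart, which by itself gives the same sign in both pairs, as the plot of levels on each array shows.

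**Figure D1:**
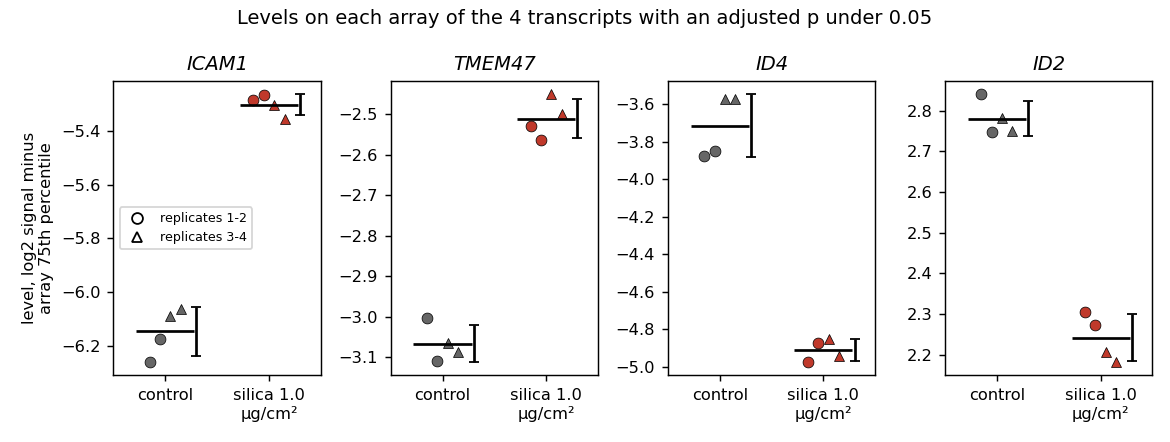
Level of ICAM1, TMEM47, ID4 and ID2 on each of the 8 arrays (log2 signal minus the array's 75th percentile, separate vertical scales). Circles are replicates 1-2, triangles replicates 3-4, horizontal lines the mean of 4 arrays and vertical bars ± 1 SD. In each panel the 4 control arrays (grey) and the 4 exposed arrays (red) do not overlap, for example −6.26 to −6.06 against −5.36 to −5.27 for ICAM1.

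The other ID genes lay on the same side as ID4 and ID2 without passing the test. ID1, on chromosome 20, read 5.23, 5.16, 5.14 and 5.26 in controls and 4.80, 4.80, 4.43 and 4.42 in exposed cells, a difference of −0.59 ± 0.11 with an adjusted p of 0.0876, or −0.39 and −0.78 within the pairs. ID3, on chromosome 1, read 3.85, 3.79, 3.59 and 3.52 against 3.28, 3.27, 3.26 and 3.33, a difference of −0.40 ± 0.08 with an adjusted p of 0.109, or −0.54 and −0.26 within the pairs. All 4 ID genes thus had 4 exposed arrays below 4 control arrays, which by itself gives the same sign within both pairs. Of all 13941 genes tested, 5.77% lay lower in this way, and ID4 and ID2 were chosen by their adjusted p. With quantile normalization the differences of ID1 and ID3 were −0.47 and −0.33.

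NOG, which encodes the secreted BMP antagonist noggin, was the fifth member of the ID and BMP-SMAD list whose exposed arrays all lay lower. It read −4.77, −4.77, −4.87 and −4.99 against −5.46, −5.53, −5.11 and −5.30, a difference of −0.50 ± 0.10 with an adjusted p of 0.109. The list as a whole held 24 tested genes, of which 1 was called, 11 were higher and 13 lower, and its median was −0.03 beside −0.003 over all 13941 genes tested. Without overlap between groups, 5 members were lower and 1 was higher, while over all genes 5.77% were lower and 7.88% higher in this way. The highest members were SMAD4, the common partner of the receptor-regulated SMAD factors, at 0.35, and the receptor gene BMPR2 at 0.30. SMAD4 overlapped between groups: it read −2.43, −2.40, −2.70 and −2.75 in controls and −2.46, −2.53, −1.92 and −1.96 in exposed cells, so its difference lay in replicates 3-4.

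The immediate-early transcription factors and MAP kinase phosphatases had the lowest median of the 14 pathway lists, −0.31, and the same median within each pair as matched by number. Of 21 tested members, 19 were lower and 2 higher. In 11 of them (52.4%, beside 5.77% of all genes), every exposed array was below every control array, and 13 were lower at an unadjusted p under 0.05, beside 7.75% of all genes. None was called, with adjusted p of at least 0.0654, or of at least 0.997 with the pairs as blocks. Many of these genes are transcribed together, so they are not independent of each other. This list, like the others, was chosen with earlier results of these data known, so its shares beside all genes are no test.

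FOSB, a partner of JUN in the AP-1 factor, read 2.77, 2.69, 2.18 and 2.21 in controls and 1.79, 1.73, 1.19 and 1.15 in exposed cells. The lowest control array was above the highest exposed array by less than the gap between the pairs. Each exposed pair was about 1 unit under the control pair of the same numbers, and another matching would give uneven values. The difference was −0.997 ± 0.20, with −0.97 and −1.02 within the pairs and a limma adjusted p of 0.105. EGR3, a zinc finger factor of the EGR family, read −4.32, −4.33, −4.79 and −4.75 against −5.62, −5.37, −5.52 and −5.43, a difference of −0.94 ± 0.13 with an adjusted p of 0.0654. EGR1, whose upstream window with 2 CArG matches is printed above, read 4.75, 4.71, 4.85 and 4.86 against 4.48, 4.41, 3.92 and 3.90. Its difference of −0.61 ± 0.14 (adjusted p 0.124) was larger in replicates 3-4, where both exposed arrays lay about 1 unit under the controls of the same numbers.

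EGR2 showed the same division, with −0.60, −0.47, −0.47 and −0.31 in controls and −0.63, −0.79, −1.64 and −1.62 in exposed cells. IER2, an immediate-early nuclear protein, read 6.72, 6.65, 6.52 and 6.64 against 6.39, 6.35, 5.92 and 5.96, a difference of −0.48. FOSL2 read −0.63, −0.69, −0.73 and −0.72 against −0.986, −1.003, −1.22 and −1.25, a difference of −0.42 ± 0.08 with an adjusted p of 0.0917. Both had every exposed array below every control array. JUNB did not separate the groups: its controls read 0.40 and 0.35 in replicates 1-2 and −0.71 and −0.76 in replicates 3-4, while the exposed arrays read −0.65, −0.72, −0.63 and −0.58.

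The only 2 members above 0 were phosphatases, DUSP4 at 0.08 and DUSP6 at 0.01, and DUSP6 turned to −0.02 with normexp. DUSP1, which switches off p38 and JNK kinases, read 4.36, 4.39, 4.41 and 4.47 against 4.28, 4.29, 3.91 and 3.89. NR4A3, an orphan nuclear receptor that is also induced at once by many stimuli and was not on the list, was among the 10 largest negative differences. It read 1.41, 1.35, 1.20 and 1.29 against 0.74, 0.73, 0.25 and 0.21, a difference of −0.83 ± 0.14 with an adjusted p of 0.0784. The plot of the 21 members sets each array against its gene's control mean. In the upstream windows, the CArG box was found in 2 of 15 members with a window (13.3%), EGR1 and EGR2.

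**Figure D2:**
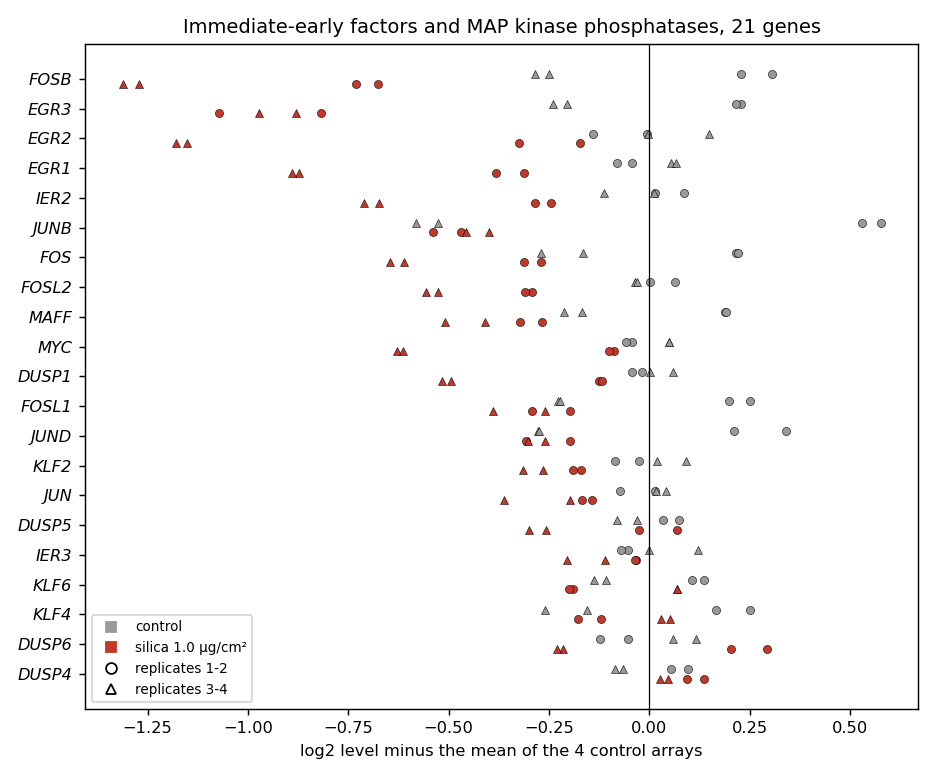
Each of the 21 immediate-early factors and MAP kinase phosphatases on each array, as log2 level minus the mean of the 4 control arrays (horizontal axis), sorted by the mean difference. Control arrays are grey and exposed arrays red, circles are replicates 1-2 and triangles replicates 3-4. The exposed arrays lie to the left of 0 for most genes, and farthest left for FOSB, EGR3, EGR2 and EGR1.

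ATF3, a stress-induced AP-1 relative counted here with the unfolded protein and integrated stress response, also read lower. Its controls were 3.90, 3.90, 3.58 and 3.58 and its exposed arrays 3.35, 3.36, 2.88 and 2.85, so the groups did not overlap. The difference was −0.63 with an adjusted p of 0.126. That list had a median of −0.10 over 18 genes, 14 of them lower, but its median was 0.02 in replicates 1-2 and −0.23 in replicates 3-4. ASNS, asparagine synthetase, was at −0.36, while CHAC1, a glutathione-degrading enzyme, was at 0.21 and SEL1L, of endoplasmic reticulum degradation, at 0.14.

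Besides ICAM1, no gene of the NF-kB, cytokine or adhesion lists was called. Of 12 NF-kB subunits and feedback genes, 8 were higher and 4 lower, with a median of 0.16. Without overlap, 3 (25.0%) were higher, beside 7.88% of all genes, and 1, BCL3, was lower (8.33%, beside 5.77%). NFKBIZ, a nuclear co-activator of the p50 subunit, read −3.21, −3.15, −3.29 and −3.28 in controls and −3.14, −3.09, −2.66 and −2.70 in exposed cells, so most of its difference of 0.33 (adjusted p 0.217) lay in replicates 3-4. TNFAIP3, the A20 inhibitor of the pathway, was at 0.25 with overlapping groups. The lowest were BCL3, a nuclear co-regulator, at −0.22 and the inhibitor NFKBIA at −0.20. With normexp the list's median was 0.09.

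Of 14 tested cytokines and chemokines, 11 were higher and 3 lower, with a median of 0.12, or 0.04 with normexp. CCL2, which attracts monocytes, read −0.16, −0.17, −0.19 and −0.21 in controls and 0.25, 0.23, 0.09 and 0.12 in exposed cells. All 4 exposed arrays were higher, and the difference of 0.35 ± 0.06 had an adjusted p of 0.0784; it was 0.35 with normexp too. IL6 read −4.11, −4.19, −4.21 and −4.23 against −4.02, −3.96, −3.96 and −3.95, a difference of 0.21 with an adjusted p of 0.140. CXCL5, a neutrophil chemokine, was at 0.27 with no overlap between groups. IL32 had the highest difference of the list, 0.45, but its groups overlapped: replicates 1-2 hardly differed, at −1.66 and −1.68 in controls against −1.71 and −1.70, while replicates 3-4 read −2.13 and −2.16 in controls against −1.24 and −1.18. IL11, of the IL-6 family, was at −0.29 and IL23A at −0.11.

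CXCL8, the main neutrophil chemokine of epithelium, read −4.78, −4.49, −3.72 and −4.48 in controls and −4.81, −4.04, −3.99 and −4.03 in exposed cells. Its difference of 0.15 ± 0.26 was within the spread between arrays. The Rel core shown in the ICAM1 window was found upstream of 5 of 11 genes of the cytokine list with a window (45.5%). A gene counts if any of its windows matches, while the 0.826% given above is a share of single windows. The 5 were CXCL1, CXCL2, CXCL3, CXCL5 and CXCL8, whose differences were 0.13, 0.04, 0.15, 0.27 and 0.15. In the adhesion list, the Rel core was found in ICAM1 alone out of 11 genes with a window. In the NF-kB list it was found in 5 of 10 genes with a window (50%). These were NFKBIZ at 0.33, NFKB1 at 0.22, REL at 0.19, NFKBIB at −0.003 and NFKBIA at −0.20. In the other lists it was found only in DUSP6, at 0.01, and OAS3.

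The 17 tested adhesion molecules had a median of −0.02, which was 0.23 in replicates 1-2 and −0.18 in replicates 3-4, and 0.01 under quantile normalization. After ICAM1, the next highest was the carcinoembryonic antigen family member CEACAM6 at 0.16. ICAM5 was at −0.30 and the nectin NECTIN2 at −0.14. Of the 4 tested leukocyte markers, 3 were higher and 1, PTPRC, was lower, at −0.07. Of those higher, the lysosomal protein CD68 read −1.83, −1.88, −1.95 and −1.97 in controls and −1.24, −1.21, −1.65 and −1.63 in exposed cells, and the integrin chain ITGAM was higher by 0.40. Neither CD68 nor ITGAM was called, both had non-overlapping groups, and their part in the ICAM1, cytokine and interferon values was not tested. As in any bulk sample, a change in the number of cells that express a gene and a change per cell cannot be told apart.

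Interferon-stimulated genes, which encode antiviral effectors, were higher in 16 of 18 tested members, with a median of 0.18, or 0.17 and 0.21 within the pairs. None was called, and 7 were higher at an unadjusted p under 0.05 (9.68% of all genes were). Every exposed array lay above every control for IFIT2, IFIT3, MX1 and OASL, 4 of 18 (22.2%) beside 7.88% of all genes. IFIT2 read −3.56, −3.68, −3.08 and −3.13 in controls and −2.77, −2.88, −2.94 and −2.96 in exposed cells, a difference of 0.47 with an adjusted p of 0.165. OAS2 was at 0.40 with the deposited processed signals and at −0.01 with normexp, under which the list's median was 0.03. ISG20 was at −0.25 and STAT2 at −0.16.

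The NRF2 targets, which make glutathione and detoxify electrophiles and oxidants, had a median of −0.16, with 19 of 27 members lower and 8 of them without overlap (29.6%, beside 5.77%). Under quantile normalization this median was 0.05, so its sign depends on the scaling. HMOX1, heme oxygenase, read 5.15, 5.16, 5.27 and 5.30 in controls and 4.95, 4.89, 4.79 and 4.83 in exposed cells, a difference of −0.35 ± 0.06 with an adjusted p of 0.0872. PRDX1, a peroxiredoxin, read 6.95, 7.02, 7.29 and 7.27 against 6.85, 6.87, 6.60 and 6.63, a difference of −0.40 with an adjusted p of 0.147. The export pump ABCC3 was at 0.21 and malic enzyme ME1 at 0.17. None of the 27 was called, and the summed epithelial marker level given above was lower in the same exposed arrays.

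The remaining lists differed little between groups, and none of their members was called. Metallothioneins, which bind zinc and copper and whose similar copies a probe may not tell apart, had a median of −0.13 over 8 genes, with MT2A at −0.20 and the zinc-regulated exporter SLC30A1 at 0.11, and −0.04 under quantile normalization. Heat shock proteins had a median of −0.05 over 12 genes, with HSP90AA1 at −0.26 and HSPA8 at 0.11, and 0.01 under quantile normalization. Genes of coagulation and fibrinolysis had a median of 0.03 over 20 genes, with F10 at −0.37 and F12 at −0.27 below and KNG1 at 0.22 and PLAU at 0.20 above. Genes of particle uptake and actin control had a median of −0.01 over 22 genes, with ACTB at −0.30 and TFRC, the transferrin receptor, at 0.25. Across the alternative settings, those that left out 1 array aside, ACTB ranged from −0.30 to −0.006 and HSP90AA1 from −0.27 to −0.015. The sizes of both thus depend on the processing.

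Cholesterol synthesis had a median of 0.06 over 24 genes, with 6 higher without overlap (25.0%, beside 7.88% of all genes) and 3 lower (12.5%, beside 5.77%). SC5D, which acts near the end of the pathway, read −4.59, −4.57, −4.52 and −4.57 in controls and −4.28, −4.32, −4.18 and −4.21 in exposed cells, and its difference of 0.31 ± 0.06 had an adjusted p of 0.0837. HMGCS1 was at 0.28 and mevalonate kinase, MVK, at −0.27. In the cell cycle list, of 22 genes with a median of −0.03, 1 gene had the same sign in both pairs, while the differences reached 0.22 for TOP2A and −0.18 for CCNB2. The plot of list medians places these lists beside the median of all genes.

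**Figure D3:**
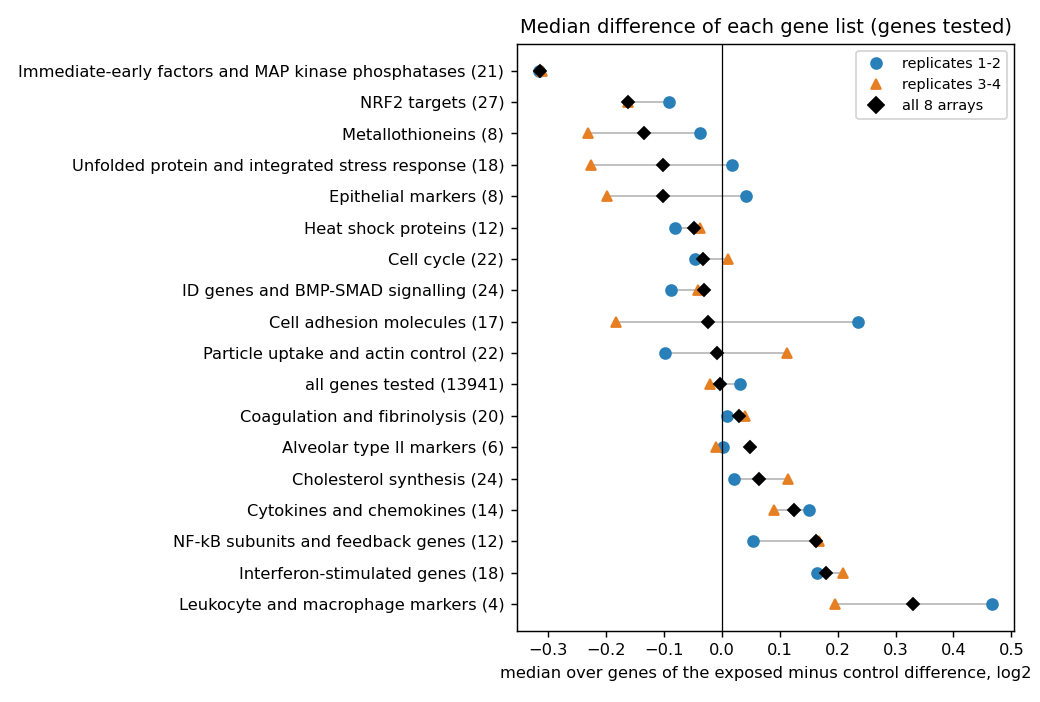
Median exposed minus control difference (log2, horizontal axis) of each gene list with at least 4 tested genes and of all genes, with the number of genes tested in brackets. Black diamonds use all 8 arrays, blue circles replicates 1-2 and orange triangles replicates 3-4. The immediate-early list is lowest at −0.31 with its 3 symbols together, while the adhesion list spans 0.23 to −0.18 between the pairs.

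Beyond ICAM1, none of the 10 genes with the largest positive differences, taken among genes with no overlap and the same sign in both pairs, was called, and dim probes led them. SCN8A, a sodium channel subunit, had a difference of 1.04 ± 0.28 (adjusted p 0.1498), but was above background on 1 of 4 control arrays, and its other tested probe was at −0.06. Where controls were not above background, as in SCN8A, LTB, ITGA2 and MIR600HG, their levels lie near the floor of the array and the difference is not a measured fold. EPM2AIP1 read −6.43, −6.74, −6.69 and −6.42 in controls and −5.76, −5.83, −5.36 and −5.33 in exposed cells, a difference of 1.00 ± 0.14 with an adjusted p of 0.0654, and of 0.10 with normexp. LTB, lymphotoxin beta, a membrane cytokine of the tumour necrosis factor family, read −6.64, −6.42, −6.11 and −6.11 against −5.11, −5.34, −5.45 and −5.64. Its difference was 0.93 ± 0.15 (adjusted p 0.0784), or 0.13 with normexp, and it was above background on 2 of 4 controls. ITGA2, the collagen-binding integrin chain, was at 0.93 ± 0.25 and likewise above background on 2 of 4 controls.

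TXNIP, the thioredoxin-interacting protein that responds to glucose, was above background on all 8 arrays. It read −4.94, −5.21, −4.59 and −4.65 in controls and −4.03, −4.09, −4.02 and −4.15 in exposed cells, a difference of 0.78 ± 0.13 with an adjusted p of 0.0798, or 0.34 with normexp. SNHG7, a small nucleolar RNA host gene, was at 0.92 by one probe and −0.32 by a second. ALOX12P2, a pseudogene that may share sequence with its relatives, was at 0.86. XRRA1 was at 0.91 through exposed replicate 1, which read −2.80 while the other exposed arrays read −4.64, −4.38 and −4.47. MIR600HG, a host gene of a microRNA, was at 0.78, above background on 1 of 4 controls, and turned to −0.07 with normexp.

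Among the 10 largest negative differences chosen the same way, of which ID4 alone was called, ribosomal RNA came first. RNA5-8SN5 read 2.42, 2.49, 3.44 and 3.46 in controls and 2.05, 2.07, −0.98 and −1.03 in exposed cells, so its difference of −2.43 ± 0.78 (adjusted p 0.186) consisted of −0.40 in replicates 1-2 and −4.46 in replicates 3-4. RNA18SN5 was lower as well, at 6.40, 6.46, 5.71 and 5.98 against 5.82, 5.79, 4.36 and 4.36. Both are transcripts without a poly(A) tail and were lowest on the same exposed pair, in which EGR1, EGR2, MYC and ATF3 also had their lowest values; the part of total RNA composition in those values was not tested.

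The other large negative differences were mostly uneven between arrays. RP1L1 was at −1.58 and above background on 2 of 4 exposed arrays, and CFAP45, a ciliary protein, at −0.85 and on 3 of 4. VLDLR-AS1 was not well above background on any exposed array and was at least 1.94-fold lower there, but control replicate 2 read −3.87 while the other controls read −6.09, −6.33 and −6.69. RNF222 was at −1.21 with −0.29 and −2.13 in the pairs, and the histone gene H4C16, which has near-identical copies that a probe may not tell apart, at −0.92 with −0.30 and −1.54. ID4, FOSB, EGR3 and NR4A3 made up the rest, and in these 4 no pair's difference, as matched by replicate number, lay closer to 0 than −0.64.

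Of the 5 genes that the study names at this dose, ICAM1 and ID4 are described above, and the other three could not be tested. The MYNN probe was above background on 0 of 8 arrays, and its other probes were at 0.07 and −0.17. The LOC731789 probe, whose current symbol is FAM238B, was also above background on 0 of 8 arrays. The HSD17B7 probe was well above background on 0 of 4 controls and on 3 of 4 exposed arrays, which made it at least 1.47-fold higher, while 3 further probes of HSD17B7, a 17-beta-hydroxysteroid dehydrogenase of cholesterol synthesis, were at 0.14, 0.12 and 0.00.

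Across all transcripts, the exposed minus control difference in replicates 1-2 was mostly unlike that in replicates 3-4 when pairs were matched by number, a matching that the correlations between groups given above go against. It had the same sign in 36.0% of probes and the opposite sign in 13502, and its correlation across probes, which are not independent and share arrays, was −0.26. In a limma interaction over the 8 arrays, chosen after seeing the data, the difference so matched differed between pairs by 1.5-fold with an adjusted p under 0.05 for 4385 probes (20.8%), of which 4033 had opposite signs. Principal component 1 held 46.1% of the variance and component 2 held 19.9%. The plot of both differences marks ICAM1, TMEM47, ID4, ID2, FOSB and EGR3, which were chosen by their adjusted p or for one sign in both pairs, so their place in it is no finding. Only 39 probes (0.185%) differed by at least 1.5-fold in the same direction within both pairs, 20 higher and 19 lower, beside 67 in opposite directions. Those with a symbol that have not been described, named here after their values were seen, included the amylase gene AMY1C at 0.75 and the phosphatidylethanolamine-binding protein PEBP4 at 0.64, both without overlap between groups, and the telomere protein POT1 at −0.74 and the calcium exchanger SLC8A1 at −1.04, both with overlap. One probe of LIF, a cytokine of the IL-6 family, was at −0.77 and another at 0.11.

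**Figure D4:**
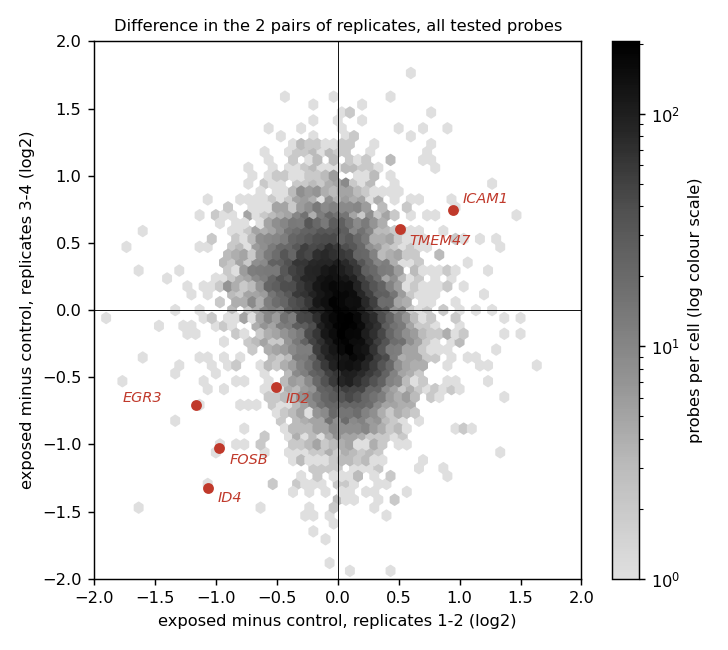
Exposed minus control difference within replicates 1-2 (horizontal) against that within replicates 3-4 (vertical), both log2, for the tested probes, with darker cells holding more probes on a log colour scale; 12 probes lie outside the axes. The cloud leans from upper left to lower right (correlation −0.26), while ICAM1 and TMEM47 lie at upper right and ID4, EGR3, FOSB and ID2 at lower left.

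The comparison with other doses addressed where along the dose series these values lie. Silica at 0.1 µg/cm2 ran on the same slides with the same controls, so the doses were compared directly. At 1.0 µg/cm2, 11 of 21676 probes (0.0507%) differed from 0.1 µg/cm2 by the same rule, 9 higher and 2 lower. With the pairs as blocks or under quantile normalization 0 were called, and leaving out any 1 of the 8 arrays left 0 to 2. ICAM1 was among them, 0.76 higher at 1.0 µg/cm2 with a limma adjusted p of 0.0250, and so was ATF3, at −0.69 with an adjusted p of 0.0250; with the pairs as blocks both were at 0.9999. ID4 was not among them: it was at −0.75 at 0.1 µg/cm2 against the same controls, and the direct difference of −0.44 ± 0.32 had an adjusted p of 0.604, so its fall at 1.0 was not shown to differ from its value at 0.1. The others with a symbol were NCF1, a subunit of the phagocyte oxidase, at 1.17, LINC00173 at 0.82, C1RL-AS1 at 0.79 and CCDC78 at 0.64. The immediate-early list had a median of −0.30 in this direct comparison, with none of its 21 members called.

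Silica at 3.0 and 1.5 µg/cm2 was run on other slides with controls of its own, so the responses were compared, each against its controls. The response at 1.0 differed from that at 3.0 µg/cm2 for 545 of 22375 probes (2.44%), and for 321 (1.43%) with the pairs as blocks. In that fit only the arrays of the 1.0 set were paired, as the 3.0 set had 3 arrays per group. At 3.0 µg/cm2 (3 arrays against 3) 636 of 22096 probes (2.88%) were called against the controls. ICAM1 did not pass this test: it was 0.84 ± 0.06 at 1.0 and 1.09 ± 0.07 at 3.0, and the difference of −0.25 ± 0.10 had a limma adjusted p of 0.174, or 0.391 with the pairs as blocks. At 1.5 µg/cm2 it was 0.49 ± 0.25 and at 0.1 it was 0.09.

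Among the cytokines, IL6 had the largest difference between the responses at 1.0 and 3.0 µg/cm2. It was at 0.21 at 1.0 and at 2.08 at 3.0 µg/cm2, and the difference of −1.87 had an adjusted p of 9.94e-05 with the pairs as blocks. IL11, IL23A and the chemokine CCL20 were likewise called lower at 1.0 than at 3.0 µg/cm2, with differences of −1.15, −1.10 and −0.81, so that 4 of the 14 cytokines were called in both fits. The NF-kB subunit RELB, at 0.20 at 1.0 and 0.95 at 3.0, was the 1 of 12 members of its list called, with a difference of −0.75. Of the 18 stress response genes 7 were called lower and 1 higher, again in both fits.

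The estimates of NR4A3, ID2 and ID3 had opposite signs at 1.0 and 3.0 µg/cm2. NR4A3 was at −0.83 and 0.67, a difference of −1.49; ID2 at −0.54 and 0.14, a difference of −0.68; and ID3 at −0.40 and 0.31, a difference of −0.71. All 3 differences were called with and without the pairs as blocks, but the sign at each dose was less certain. Against the 1.0 µg/cm2 controls, NR4A3 and ID3 had limma adjusted p of 0.0784 and 0.109. With the pairs as blocks it was 0.997 for all 3 genes. Against the 3.0 µg/cm2 controls, the limma adjusted p was 0.0131 for NR4A3, 0.223 for ID2 and 0.0483 for ID3. Among the immediate-early genes, 6 of 21 were called lower at 1.0 than at 3.0, and 4 with the pairs as blocks, among them MAFF, a small MAF factor at −0.38 and 0.82, and FOSL1 with a difference of −0.94. ID1 was at −0.59 at 1.0, 0.12 at 1.5 and −0.38 at 3.0, and ID3 was at −0.33 at 1.5. ID4 was not tested at 1.5 or 3.0 µg/cm2 against their controls, as neither group of those sets had it well above background on all arrays. Its response differences of −0.91 and −0.60 from those doses rest partly on such dim levels. They did not pass the test (adjusted p 0.169 and 0.112). TMEM47 was at 0.00 at 3.0 and −0.36 at 1.5 µg/cm2.

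Against 1.5 µg/cm2, the dose nearest above, the response differed for 462 of 21678 probes (2.13%), but for 5 (0.0231%) with the pairs as blocks. ID2 was among those 5, at −0.54 against 0.39, a difference of −0.93, with SMG1 at −1.50 and ABCA9 at −1.01 and a pair of probes with no symbol. FOSB differed by −1.60, with an adjusted p of 0.00301, or 0.0538 with the pairs as blocks, NR4A3 by −1.27, with 0.00139 and 0.0513, and ID1 by −0.71, with 0.0385 and 0.339. The difference of ID3 was −0.07, with an adjusted p of 0.879. The median of the immediate-early list was −0.31 at 1.0, 0.14 at 1.5 and 0.04 at 3.0 µg/cm2, but its members did not move as one. By limma without blocks, EGR1 fell at 3.0 µg/cm2 by 0.76 on the log2 scale (adjusted p 0.00238), EGR2 by 1.31 (adjusted p 0.00761) and FOS by 0.67 (adjusted p 0.00289), and FOSB was at −0.63 (adjusted p 0.0818). EGR2 fell at 1.5 µg/cm2 as well, with −0.59 and an adjusted p of 0.00610, where FOS was at −0.32. None of EGR1, EGR2 and FOS passed the test of the difference between 1.0 and 3.0 µg/cm2, with adjusted p of 0.717, 0.356 and 0.582. Slides differed between these sets, and the array names of the 1.5 and 3.0 sets carry another protocol label than those of the 1.0 set. A dose and its slide set and protocol therefore cannot be told apart beyond what each set's own controls remove. The plot by dose gives each gene against its own controls.

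**Figure D5:**
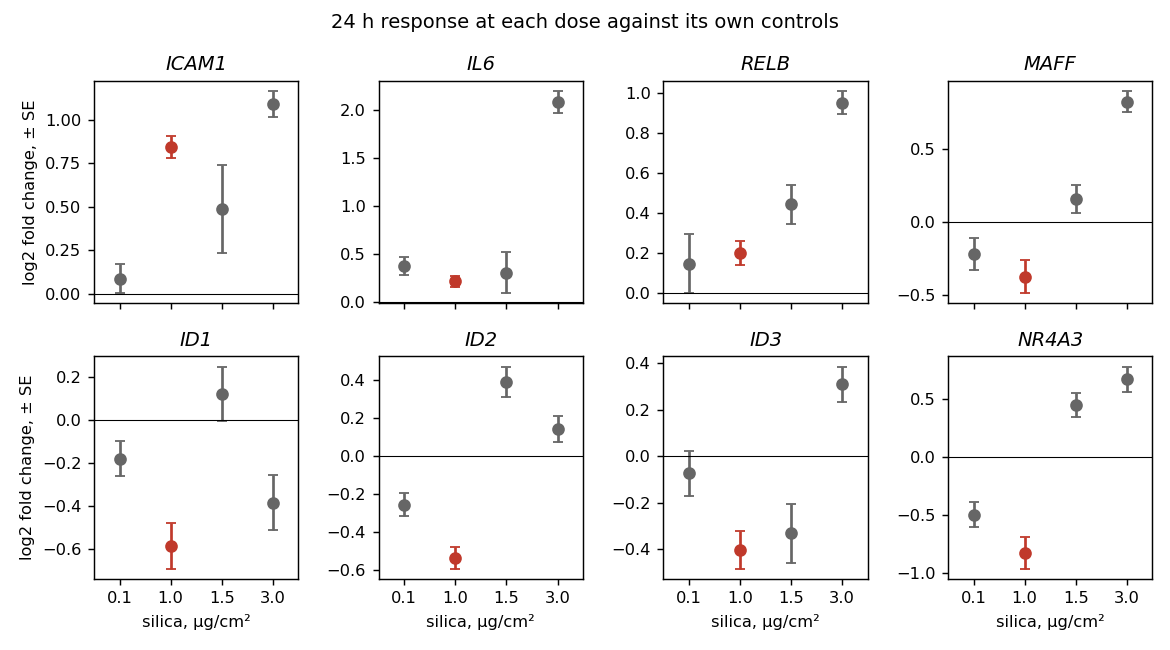
Difference from the controls of the same slides (log2 fold change ± SE, vertical axis, separate scales) at 0.1, 1.0, 1.5 and 3.0 µg/cm2 after 24 h for ICAM1, IL6, RELB, MAFF, ID1, ID2, ID3 and NR4A3, with 1.0 µg/cm2 in red. IL6 and RELB stay near their low-dose values at 1.0 and reach 2.08 and 0.95 at 3.0, while ID2, ID3, MAFF and NR4A3 lie below 0 at 1.0 and above 0 at 3.0. Doses are evenly spaced and not to scale.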

How the data were processed

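Total RNA of 8 samples was labelled with cyanine-3 and hybridised to Agilent human 4-pack arrays. Per the labels and the file headers, the authors scanned the arrays and extracted the spot intensities with Agilent Feature Extraction 10.10.1.1. The deposited intensity values used here are its processed signals, already corrected for background, and its median foreground and background signals. The deposited values of the series matrix matched the median intensities for 355960 values within 0.01, so they are linear intensities. Their log2 was used as an alternative. Columns of the authors' own comparisons were not used.

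Control spots were left out, as were spots flagged as non-uniform or as outliers (0.705% of spots on the 8 arrays); no spot was saturated. Spots of 1 probe were averaged, which gave 34127 probes from 43118 spots. Levels are log2 processed signals minus each array's 75th percentile. Probes were named through accessions in the RefSeq gene table (25715 probes), with 2 named only as in the study and 8410 left without a symbol. Tests covered 21091 probes, those that reached the scanner software's mark for signal well over background on all arrays of the control group, the exposed group or both.

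Groups were taken from the labels. Exposed and control arrays (4 against 4) were compared with limma 3.58.1 in R 4.3.3, Benjamini-Hochberg adjusted over all tested probes, without a block, as the study's methods use an unpaired test. A second fit held replicates 1-2 and 3-4 of each group as a random block (duplicateCorrelation, statmod 1.5.0). In the 3.0 µg/cm2 set, with 3 arrays per group, each array was instead a block of its own. In the 1.5 µg/cm2 set, whose arrays lay on 4 slides, the pairs were set by replicate number alone. Response differences against 1.5 and 3.0 µg/cm2 were limma interactions, and the 1.0 against 0.1 µg/cm2 contrast was fitted on its own. For a probe that was well above background on no array of a group, a fold is a bound: the mean of the brighter group against, per array, the higher of the lowest level above background and the probe's own level. A gene in a list is represented by its tested probe with the highest mean level over the 8 arrays. Genes named are the 5 that the study names at this dose, the 10 largest differences each way among genes with no overlap and one sign in both pairs, and the 2 highest and 2 lowest of each list; a few more are named as chosen after their values were seen or because their groups did not overlap. The members and lists were chosen with earlier results of these data known. The scripts were tested on simulated data. Arrays give no counts, so their number limits the precision.

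Alternatives were normexp background correction (offset 50, on median signals), quantile normalization, other filters, flagged spots kept, the series matrix, the methods' t-test, block designs, the 0.1 µg/cm2 arrays in the fit, and each array left out. The interaction between pairs and the fits within 1 pair were chosen after seeing the data. Promoter windows were searched on both strands in RefSeq GRCh38.p14 sequence. Figures were drawn with matplotlib 3.10.9.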

Additional observations from a re-analysis of the deposited data

Results flagged for a closer look

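Exposed replicate 1 stood apart from the other exposed arrays for XRRA1, with a gap to the nearest array of 0.859 of the group's whole range, beyond Dixon's critical value. Of 48 groups of 4 arrays looked at, this was the 1 that stood out, and chance alone marks 5% of groups. The second XRRA1 probe was at 0.16.

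The responses of ID2, ID3 and NR4A3 differed between 1.0 µg/cm2 and a higher dose, by limma with and without the pairs as blocks. They were not the only ones: against 3.0 µg/cm2, 545 probes were called, and 321 with the pairs as blocks. Estimates of ID2, ID3 and NR4A3 had opposite signs at the compared doses, but that of ID2 at 3.0 µg/cm2 had a limma adjusted p of 0.223. MAFF, FOSL1 and IL11 were likewise called in both fits, with estimates of opposite sign at 1.0 and 3.0 µg/cm2. Against 3.0 µg/cm2, the difference of the responses was −0.68 for ID2, −0.711 for ID3 and −1.49 for NR4A3. Against 1.5 µg/cm2 it was −0.929 for ID2. The 1.0 and the higher doses ran on different slides, under another protocol label in the array names, and the part of the slide set was not tested.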

How the results depend on the processing

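The count of 2 calls against the controls became 1 with normexp, with only probes above background on all 8 arrays, with flagged spots kept and with the series matrix values. It became 0 with no filter on dim probes, with the pairs as a random block, with the pairs averaged, with slide as a block and with replicates 1 to 3 alone. The replicate number as a block also gave 0 calls; arrays with the same number in both groups deviated in opposite ways (correlations of −0.34 to −0.22), so the numbers were not taken to pair the samples. There were 4 calls without a fold threshold, 5 with replicates 1-2 against 3-4 as a fixed block, 7 by the methods' t-test after Benjamini-Hochberg and 111 by it without adjustment. Leaving out 1 array gave 1 to 4 calls. Within replicates 1-2 alone 424 probes were called and within replicates 3-4 alone 1865, both fits chosen after seeing the data.

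The 11 calls against 0.1 µg/cm2 became 0 with quantile normalization, 0 with the pairs as a random block, 1 with the replicate block and 0 to 2 when 1 array was left out. The 545 probes whose response differed from that at 3.0 µg/cm2 became 1140 with no fold threshold, 262 with the replicate block, 321 with the pairs as a random block and 415 to 620 when 1 array was left out. The 462 against 1.5 µg/cm2 became 5 with the pairs as a random block and 339 to 693 when 1 array was left out.

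Differences that changed sign belonged to genes that were not called. With normexp, MIR600HG was at −0.068, SFTPA2 at −0.023, LAMP3 at −0.22, KNG1 at −0.18, DUSP6 at −0.015 and OAS2 at −0.0080. With the series matrix values, SFTPA2 was at −0.022, LAMP3 at −0.21, KNG1 at −0.0092 and DUSP6 at −0.018. Quantile normalization put KRT18 at 0.030 and slide as a block put PTPRC at 0.061. With replicates 1 to 3 alone, SFTPA2 was at −0.019, KNG1 at −0.075, HSPA8 at −0.029 and PTPRC at 0.093. Leaving out 1 array gave −0.021 to 0.15 for LAMP3, −0.090 to 0.40 for KNG1, −0.031 to 0.081 for CDH1, −0.020 to 0.21 for HSPA8, −0.080 to 0.094 for DUSP6 and −0.23 to 0.059 for PTPRC. The cause was not tested. The median of all probes moved to −0.07 with normexp and −0.06 with the series matrix values. Dim probes, ICAM1 among them, bound what these arrays can show, and their differences changed size with the background correction.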
